A study of Zea mays with 57 samples.

Results

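The gene models annotated on the mitochondrial genome of maize were followed in shoots given nitrogen or a salt control. They were taken as every model of the deposited count table whose chromosome is Mt, which gave 144 models among 46335 in the table. The 28 models with a mean level of at least 1 CPM are described one by one, and the other 116 by their summed counts. CPM here means counts divided by the library total and by a TMM scaling factor, times 1000000.

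All libraries came from shoots of the inbred line B73, from seedlings aged 10 days that had been starved of nitrogen for 2 days and were treated 2 h after the lights came on. In the nitrogen groups the roots were moved to 20 mM KNO3 plus 20 mM NH4NO3, of which 10% carried the heavy isotope 15N. In the control groups they were moved to 20 mM KCl. The media therefore differ in chloride and in total salt as well as in nitrogen. Shoot samples were taken before transfer at 0 min (the start) and at 9 times between 5 and 120 min in each medium, which makes 19 groups of 3 libraries. Each library is a pool of 3 seedlings, so the p-values measure the spread between pools.

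Plant mitochondria keep a small genome that encodes core subunits of the respiratory chain and of ATP synthase, a set of ribosomal proteins, proteins that attach heme to cytochrome c, and a maturase that assists intron splicing. Most other mitochondrial proteins are encoded in the nucleus and imported. In plant mitochondria a poly(A) tail generally marks a transcript for decay, unlike the tail of a nuclear messenger RNA. The libraries were made from poly(A) RNA by sequencing from the 3′ end, so the values describe tailed transcripts or transcripts primed on internal runs of A, and not the whole mitochondrial RNA pool.

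The 56 libraries used for means held between 1057488 and 5684785 counts. One library, replicate 3 of nitrogen at 120 min, held only 8560 counts, of which 28 were mitochondrial. It stayed in the statistical fit but is left out of every mean, SD and range below, so n is 26 for nitrogen, 27 for KCl and 3 for the start. Another library stood apart in the organelle counts: replicate 1 of nitrogen at 20 min had a mitochondrial share of 0.0930% and a plastid share of 0.0287%, against mitochondrial shares of 0.464% and 0.465% in its group. Low mitochondrial shares were also found in replicate 3 of nitrogen at 5 min (0.204%) and in replicate 3 of KCl at 20 min (0.228%). Nuclear gene IDs carry no names in the sources used here, so the shoot label could be checked only by plastid models. Those overlapping photosystem genes or the Rubisco gene rbcL summed to 26 to 327 counts in each of these 56 libraries. Most of these counts came from models that span several genes, the largest with 2536 (psaJ to rps12), 1342 (psbH/petB) and 1187 (psbK to psbZ). The rbcL-spanning model held only 32 counts over 57 libraries and psaC 5, so the check of the label is weak. In bulk tissue, fewer cells or fewer mitochondria and less RNA per cell cannot be told apart.

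Very few models carried the mitochondrial counts. Over 57 libraries the models summed to 592312 of 148765662 counts. One short open reading frame of no assigned function, orf99-d (GRMZM5G845024, AGPv4 Mt:138031-138330, minus strand), held 62.8% of them. A model that spans the neighbouring genes rps1 and ccmFN (GRMZM5G867512, Mt:273331-275849, minus strand), which encode a ribosomal protein and a subunit of the cytochrome c heme lyase, was next. Together they held 81.4%, and the first 10 models held 97.3%. Per kilobase of model length orf99-d stood at 1240270 counts, the rps1/ccmFN model at 43756, rps12 at 38683, cox3 at 27209, nad4 at 16039 and atp4 at 8567. Reads from the 3′ end need not grow in number with model length. Values per kilobase therefore favour short models and give no ranking of abundance. Counting did not use strand, so reads of overlapping or antisense models cannot be separated.

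Many textbook mitochondrial genes were almost absent from these libraries. The complex I subunits nad6, nad7 and nad9, the ribosomal proteins rps4, rps13 and rps2A, the ATP synthase subunit atp8 and all 4 transfer RNA models were listed at 0 counts. The cytochrome b gene cob, the mitochondrially encoded subunit of complex III, had 1 count in all. A count of 0 over all libraries allows a level of up to 0.0202 CPM (3 counts, counting error only). In all, 81 of the 144 models had 0 counts, among them 49 of the 86 open reading frame models. Of the 116 models under 1 CPM, 35 had at least 1 count, and the 116 together held 1312 counts or 0.222% of the mitochondrial total. Their summed level was 10.3 ± 3.88 CPM in nitrogen (SD, n = 26), 7.44 ± 2.88 CPM in KCl (n = 27) and 13.6 ± 2.22 CPM at the start (n = 3), and the ranges of the media overlapped, at 3.04 to 18.8 CPM in nitrogen and 2.46 to 12.5 CPM in KCl.

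The mitochondrial share of all counts was close in both media. It was 0.404% ± 0.0979 in nitrogen (SD, n = 26), 0.393% ± 0.0664 in KCl (n = 27) and 0.474% ± 0.0544 at the start (n = 3). The difference between media was smaller than the spread between libraries. Without orf99-d the share was 0.163% ± 0.0466 with nitrogen, 0.137% ± 0.0253 with KCl and 0.178% ± 0.0151 before transfer. In their composition, orf99-d made up 59.6% ± 7.29 of the mitochondrial counts with nitrogen, 65.02% ± 4.14 with KCl and 62.3% ± 1.71 before transfer. In nitrogen this percentage stood at 71.4% ± 3.19 at 15 min and 52.7% ± 3.21 at 20 min (n = 3 each), while in KCl it was 67.3% ± 2.29 and 68.6% ± 3.35 at the same times. Those are the nitrogen times with the highest and the lowest mean, so the gap between them is description only.

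**Figure D1:**
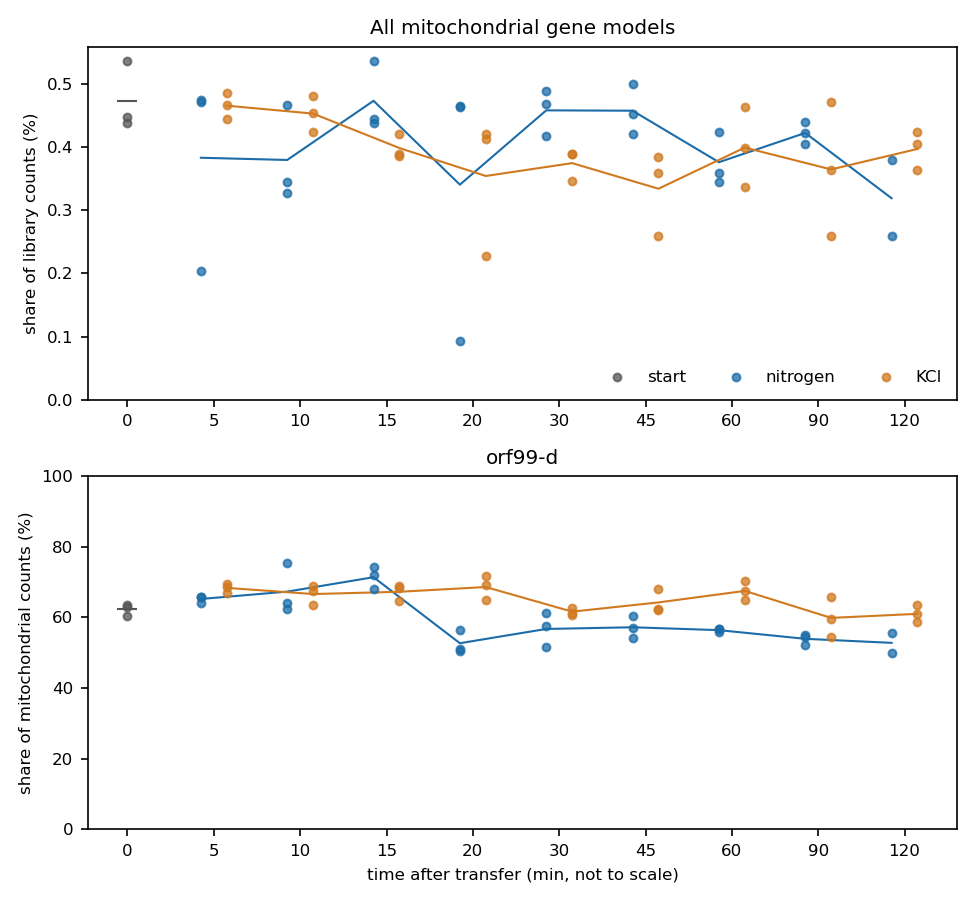
The upper panel plots the mitochondrial share of library counts (%) and the lower panel the share of mitochondrial counts held by orf99-d (%), by time after transfer, with points for libraries and lines for group means (the start in grey, nitrogen in blue, KCl in orange; the library with 8560 counts is not drawn). The total share overlaps between media, with 1 nitrogen library at 0.0930% at 20 min, whereas the orf99-d share in nitrogen lies between 50.0% and 61.2% from 20 min on.

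Averaged over the 9 times, each mitochondrial model either had a higher level under nitrogen or did not pass the test. Of the 28 described models 21 had enough counts to be tested, and 13 of these passed at an adjusted p of 0.05, all 13 higher and 0 lower in nitrogen. Over all 18412 genes tested 58.8% passed, 29.9% higher and 28.9% lower, so the 13 of 21 that passed are near the background, and only their direction departs from its balance. The median log2 difference of the 21 models was 0.43, against 0.014 over all genes. The 10 models of 21 that passed the joint test of the 9 differences compare with 46.9% of all genes. The plastid genome went the other way: all 7 plastid models tested were lower in nitrogen, with a median log2 difference of −0.84.

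Most of the 13 calls were lost under a covariate that itself differs between the media. The strongest axis of spread within groups, the first principal component of the within-group residuals of nuclear genes, held 12.4% of that spread. The media sat apart on it, at −0.73 ± 0.94 in nitrogen (SD, n = 26) and 0.70 ± 0.42 in KCl (n = 27), in units of its SD over libraries. With each library's position on it as a covariate, an alternative chosen after seeing the data and run without the library of 8560 counts, 2 of 25 models passed (orf119-c and orf117-d), against 16 of 25 in the same libraries without the covariate. Over all genes 4376 against 10990 of 18771 passed. The position of a library also holds the differences between group means, so adjusting for it takes away part of any difference between media along the axis. This fit cannot separate that from spread between libraries. Of the 13 models that passed, orf119-c alone still did so in the average under that covariate, at 0.95 (adjusted p = 0.00618).

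By role, the summed level of the models was lower in KCl than in nitrogen and at the start in every class but the open reading frames and complex III (1 count in all), leaving aside the transfer RNA models at 0. The complex IV models summed to 260.5 ± 107 CPM in nitrogen (SD, n = 26), 182 ± 42.6 CPM in KCl (n = 27) and 279 ± 14.6 CPM at the start (n = 3). The complex I models summed to 194.5 ± 62.4, 169 ± 40.9 and 217 ± 21.4 CPM in the same order, and the ribosomal protein models to 140.2 ± 45.6, 108 ± 18.1 and 139 ± 7.99 CPM. The open reading frames, most of whose counts are those of orf99-d, summed to 2591 ± 718, 2666 ± 489 and 3069 ± 378 CPM, with the media in the opposite order. In these 4 sums the media differed by less than 1 SD of the nitrogen libraries, whereas for mat-r, the single maturase, and for the unnamed models the difference was larger than that SD. No test was run on them.

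Among the respiratory chain genes the oxidase models passed and the complex I models did not, and the difference between them was not tested. The gene cox3 (GRMZM5G884538, Mt:441570-442510) encodes a membrane subunit of cytochrome c oxidase, the terminal enzyme of the chain. The level of cox3 at the start was 235, 224 and 205 CPM. In nitrogen its lowest, median and highest values were 23.5, 229.5 and 373 CPM, and in KCl 85.6, 144 and 256 CPM. The lowest nitrogen value was that of replicate 1 at 20 min, whose group mates stood at 373 and 369 CPM. At that time cox3 in KCl was 111.4, 129.8 and 85.6 CPM, so 2 nitrogen libraries lay above and 1 below all KCl libraries. On average cox3 was higher in nitrogen by 0.44 ± 0.13 on the log2 scale (SE, adjusted p = 0.0048), and by 1.20 ± 0.40 at 20 min (adjusted p = 0.0219).

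The second oxidase model spans cox2, which encodes the subunit that takes electrons from cytochrome c (GRMZM5G862955, Mt:541369-545055). At the start the 3 libraries of the cox2-spanning model were within 57.1 and 57.9 CPM. In nitrogen it ranged from 7.16 to 106 CPM with a median of 52.2, and in KCl from 15.1 to 45.2 CPM with a median of 33.01. The cox2-spanning model was higher in nitrogen by 0.61 ± 0.13 on the log2 scale (adjusted p = 6.5e-05), and it passed alone at 20, 30, 45 and 60 min with differences from 1.02 to 1.34. Its call at 45 min (adjusted p = 0.0468) was lost with RLE size factors, library totals, DESeq2, the replicate block and the position covariate, and without any 1 of its 6 libraries. The call at 30 min was lost with DESeq2 and the position covariate.

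The complex I subunit gene nad4 (GRMZM5G804358, Mt:76132-84976, 4 exons) encodes a membrane-arm subunit of the NADH dehydrogenase. At the start nad4 stood at 199, 195 and 231 CPM. In nitrogen it ran from 48.7 to 305 CPM with a median of 196, and in KCl from 99.1 to 308 CPM with a median of 163. The ranges of the media thus overlapped almost wholly, and the KCl ranges of both oxidase models also lay inside those of nitrogen. The average log2 difference of nad4 was 0.17 ± 0.11 (adjusted p = 0.165). A second membrane-arm subunit, nad3, had 0.35 ± 0.21 (adjusted p = 0.147), and the model over nad5 and orf105-c had 0.43 ± 0.23 (adjusted p = 0.0937).

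The ATP synthase gene atp4 (GRMZM5G884912, Mt:138553-139212) encodes a subunit of the stalk that anchors the catalytic head of complex V. At the start atp4 was 34.5, 44.1 and 48.2 CPM. In nitrogen its lowest, median and highest levels were 11.7, 43.999 and 79.9 CPM, and in KCl 16.6, 32.9 and 58.7 CPM. At 90 min the nitrogen libraries held 70.8, 65.04 and 79.9 CPM and the KCl libraries 29.5, 22.6 and 56.8 CPM, without overlap, as for 14.4% of all genes at that time. The average log2 difference of atp4 was 0.29 ± 0.10 (adjusted p = 0.0104) and that at 90 min 1.00 ± 0.29 (adjusted p = 0.0266). The call at 90 min was lost in 0 of 10 alternatives, but in 4 of 6 omissions of 1 of its libraries.

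Of the ribosomal protein models, both small-subunit genes that could be tested passed. The level of rps12 (GRMZM5G881135, Mt:262384-262761) at the start was 112, 118 and 102 CPM. In nitrogen rps12 ran from 26.4 to 180 CPM with a median of 122, and in KCl from 61.3 to 124 CPM with a median of 91.7. Its average log2 difference was 0.29 ± 0.10 (adjusted p = 0.0137). The gene rps7 (GRMZM5G890451, Mt:433538-433984) was lower in level and differed more, at 0.60 ± 0.13 (adjusted p = 0.000111), and passed alone at 20 min (1.29) and at 45 min (1.2996). The much more abundant rps1/ccmFN model did not pass. It held 773, 799 and 970 CPM at the start, from 229 to 1035 CPM with a median of 847 in nitrogen, and from 493 to 1084 CPM with a median of 710 in KCl. All 3 nitrogen libraries of the rps1/ccmFN model lay above all KCl libraries at 45 min, at 980, 1035 and 990 against 621, 534 and 710 CPM, as did 20.3% of all genes at that time. Its average log2 difference was 0.14 ± 0.09 (adjusted p = 0.202) and that at 45 min 0.69 ± 0.27 (adjusted p = 0.0607).

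The maturase gene mat-r (GRMZM5G851769, Mt:267745-269870) encodes a protein related to the maturases of group II introns, which assists the splicing of mitochondrial transcripts. At the start mat-r stood at 39.9, 51.5 and 45.7 CPM. In nitrogen it ran from 4.58 to 59.5 CPM with a median of 41.2, and in KCl from 16.6 to 48.5 CPM with a median of 23.99. At 30 min the nitrogen libraries of mat-r were at 59.5, 44.9 and 57.02 CPM and the KCl libraries at 20.0, 24.1 and 27.4 CPM, and at 45 min at 52.6, 42.9 and 54.7 against 22.1, 20.4 and 22.4 CPM. The groups did not overlap at either time, as for 17.1% of all genes at 30 min and 20.3% at 45 min. The average log2 difference of mat-r was 0.63 ± 0.13 (adjusted p = 3.53e-05), with 1.19 ± 0.38 at 30 min (adjusted p = 0.0266) and 1.21 ± 0.38 at 45 min (adjusted p = 0.0169). Both single-time calls of mat-r were lost with DESeq2 and with the position covariate. The call at 30 min was also lost with thinned counts. Of the 6 libraries at each time, left out in turn, 5 omissions lost the call at 30 min and 2 that at 45 min.

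Of the genes of cytochrome c maturation, ccmB passed and ccmC did not, and the difference between them was not tested. The heme-handling membrane protein gene ccmC (GRMZM5G898647, Mt:200741-201463) held 13.6, 14.8 and 16.98 CPM at the start. In nitrogen ccmC ran from 1.15 to 26.4 CPM with a median of 12.6, and in KCl from 5.02 to 28.7 CPM with a median of 10.6. Its average log2 difference was 0.08 ± 0.15 (adjusted p = 0.669). For ccmB, which encodes the membrane part of an ABC transporter of the same pathway, the difference was 0.71 ± 0.23 (adjusted p = 0.00701), at only 3.22 ± 2.12 CPM in nitrogen and 1.89 ± 1.17 CPM in KCl.

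The open reading frames of no assigned function differed widely among themselves. The abundant orf99-d held 2852, 2627 and 3350 CPM at the start. In nitrogen its lowest, median and highest levels were 533, 2407 and 4087 CPM, and in KCl 1572, 2628 and 3344 CPM. The whole KCl range lay inside that of nitrogen, as it also did for cox3, the cox2-spanning model, atp4, rps12 and mat-r, which passed. The average log2 difference of orf99-d was −0.11 ± 0.09 (adjusted p = 0.312), the only negative one of the 21, and it passed at none of the 9 times. The rare orf119-c (GRMZM5G891801) differed by 0.97 ± 0.17 (adjusted p = 3.97e-06), at 3.38 ± 1.38 CPM in nitrogen and 1.69 ± 0.86 CPM in KCl. A short model without a gene name, ENSRNA049457531, which lies between the 2 exons of the nad5/orf105-c model, differed by 0.99 ± 0.21 (adjusted p = 7.37e-05).

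Other open reading frames that passed were orf734 at 0.57 (adjusted p = 0.0313), orf140-b at 0.51 (adjusted p = 1.61e-05) and orf147-b at 0.41 (adjusted p = 0.00281). The model over orf1159 and orf115-d also passed, at 0.22 (adjusted p = 0.0234). The call of orf734 was lost with DESeq2, with the position covariate and in 10 of 57 omissions of 1 library. That of the orf1159/orf115-d model was lost with RLE size factors, DESeq2, the position covariate and in 7 of 57 omissions. The values of orf119-a at 0.01 and orf114-b at 0.45 did not pass. In orf140-b (GRMZM5G834666), the nitrogen mean was the higher one at 9 of 9 times, and all 3 nitrogen libraries lay above all KCl libraries at 4 of them. Those were 30, 45, 60 and 90 min, at which 17.1%, 20.3%, 16.9% and 14.4% of all genes tested did the same. Among the 7 described models with too few counts for the test, mean levels lay between 1.16 and 1.91 CPM. The nitrogen mean was the higher one at 9 of 9 times for orf107-c and at 8 for orf105-b. It was so at 7 for GRMZM5G841635, orf117-d and orf387, at 2 for the orf247-ct/orf137-a-ct model and at 1 for orf417. The model orf417 was singled out after its values were seen. Its level was 0.69 ± 0.45 CPM in nitrogen and 1.83 ± 1.07 CPM in KCl, and at 5 of the 9 times all nitrogen libraries of orf417 lay below all KCl libraries. Those were 5, 15, 20, 60 and 120 min, at which 19.2%, 16.1%, 18%, 17.5% and 10.2% of all genes tested did the same.

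**Figure D2:**
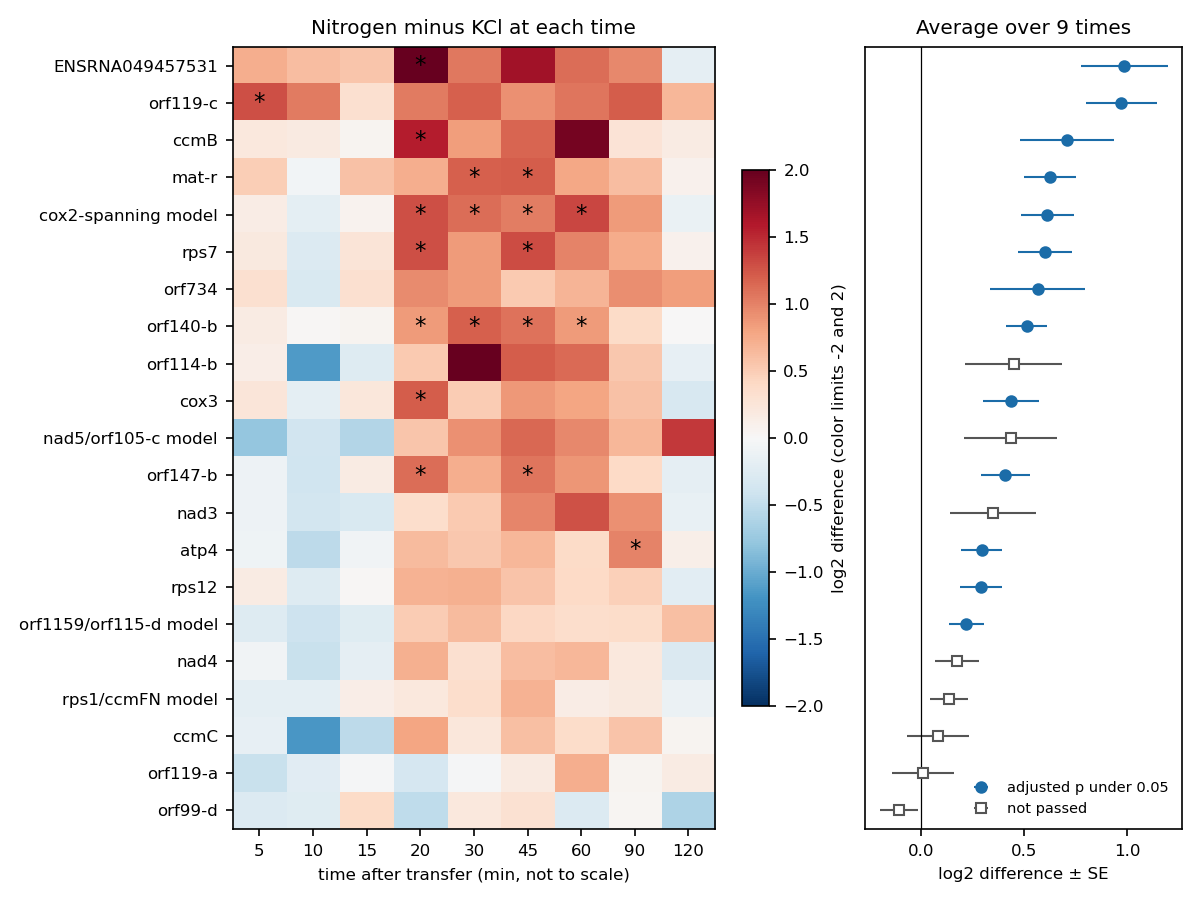
The left panel colours the log2 difference nitrogen minus KCl of the 21 tested models at each of the 9 times, with asterisks where the adjusted p is under 0.05, and the right panel gives the average over times with its SE (filled where it passed). The models are ordered by their average, from 0.99 for ENSRNA049457531 to −0.11 for orf99-d, and the red cells gather from 20 to 90 min.

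By time, the higher values in nitrogen lay between 20 and 90 min. The number of models with a positive log2 difference was 11 of 21 at 5 min, 4 at 10 min and 13 at 15 min, then 19, 20, 21, 20 and 21 at 20, 30, 45, 60 and 90 min, and 11 at 120 min. Over all genes it stayed between 49.5% and 52.1% at each time. The median log2 difference of the 21 models was 0.13, −0.25 and 0.05 at the first 3 times. It was 0.73, 0.73, 0.91, 0.79 and 0.57 from 20 to 90 min and 0.01 at 120 min.

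Single times gave few calls. At 5 min 1 of 21 models passed against 18% of all genes, and at 10, 15 and 120 min 0 passed against 0.272%, 7.68% and 1.07%. At an unadjusted p under 0.05 the edgeR counts at those 3 times were 1, 0 and 3 of 21. At 20 min 7 passed, all higher, against 26.7% of all genes (13.3% higher), and at 30 min 3 against 14.3%. The counts were 5 against 23.6% at 45 min, 2 against 20.6% at 60 min and 1 against 6.57% at 90 min. The share of members passing was thus near or below the background, with 7 of 21 at 20 min slightly above it. All 7 calls at 20 min were lost without replicate 3 of nitrogen at that time, and all 7 were lost with the position covariate. These 19 calls fell to 10 with DESeq2, to 2 with the position covariate, and to 12 without replicate 3 of nitrogen at 20 min.

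A contrast of 20 to 90 min against the other times was not tested. The contrast that was, the mean difference from 45 to 120 min minus that from 5 to 30 min, passed for 0 of 21 models against 1.41% of all genes. With edgeR 3 models had an unadjusted p under 0.05 in it (the nad5/orf105-c model, the orf1159/orf115-d model and atp4).

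**Figure D3:**
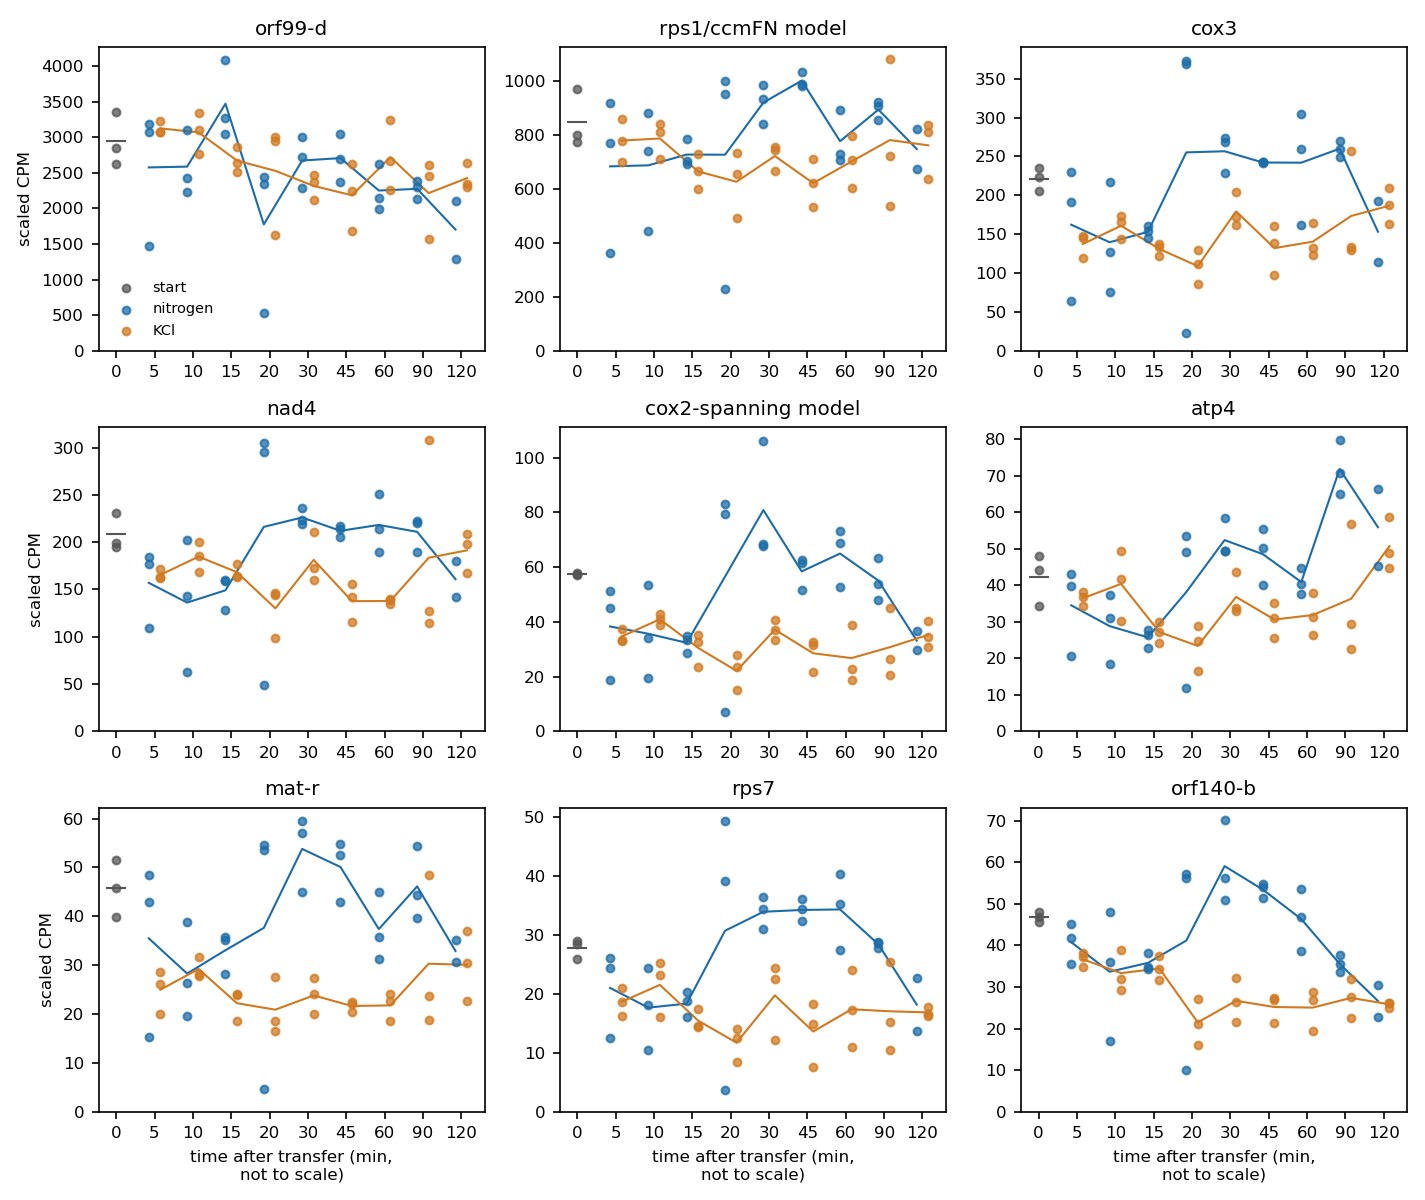
Levels in scaled CPM are plotted by time for 9 models, with points for libraries and lines for group means (the start in grey, nitrogen in blue, KCl in orange; the library with 8560 counts is not drawn). For cox3, the cox2-spanning model, mat-r, rps7 and orf140-b the nitrogen means lie above those of KCl from 20 to 90 min, whereas for orf99-d the media cross repeatedly, and in all 9 panels the lowest nitrogen point at 20 min is replicate 1.

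Against the start, the models that passed were lower in KCl. The start was sampled before transfer, so a comparison with it also spans the transfer itself and the time after it. In that contrast of the mean over 9 KCl times with the start, 5 of 21 passed, all lower, against 11.2% of all genes (6.39% lower). They were orf734 at −1.23 ± 0.41 (adjusted p = 0.0388), mat-r at −0.89 ± 0.25 (adjusted p = 0.0129), the cox2-spanning model at −0.88 ± 0.25 (adjusted p = 0.0166), rps7 at −0.76 ± 0.26 (adjusted p = 0.0467) and orf140-b at −0.75 ± 0.19 (adjusted p = 0.00827). The call of rps7 was lost in 7 of 10 alternatives, among them RLE size factors, DESeq2, the replicate block and the fit without the library of 8560 counts. All 21 log2 values were negative, with a median of −0.60 against −0.0065 over all genes. In mat-r, 1 KCl library at 48.5 CPM reached the start range of 39.9 to 51.5 CPM. In the cox2-spanning model the highest KCl library held 45.2 CPM and the lowest start library 57.1 CPM. The share of all genes with such a gap was not counted, so the gap is description only. The calls rest on the few start libraries. Without replicate 1 or replicate 2 of the start 0 of 25 models passed, and without replicate 3 of the start 2 passed. With DESeq2 1 passed. Without replicate 1 of KCl at 15 min or replicate 1 of KCl at 90 min 3 passed, and without replicate 1 of nitrogen at 20 min 10 passed.

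In the nitrogen contrast with the same start libraries 0 of 21 models passed, against 0.521% of all genes. With edgeR 0 had an unadjusted p under 0.05, and the median log2 value was −0.16. The 5 models named above had −0.66 (orf734), −0.27 (mat-r), −0.27 (cox2-spanning), −0.16 (rps7) and −0.24 (orf140-b) there. These contrasts share the start libraries and are given side by side only.

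**Figure D4:**
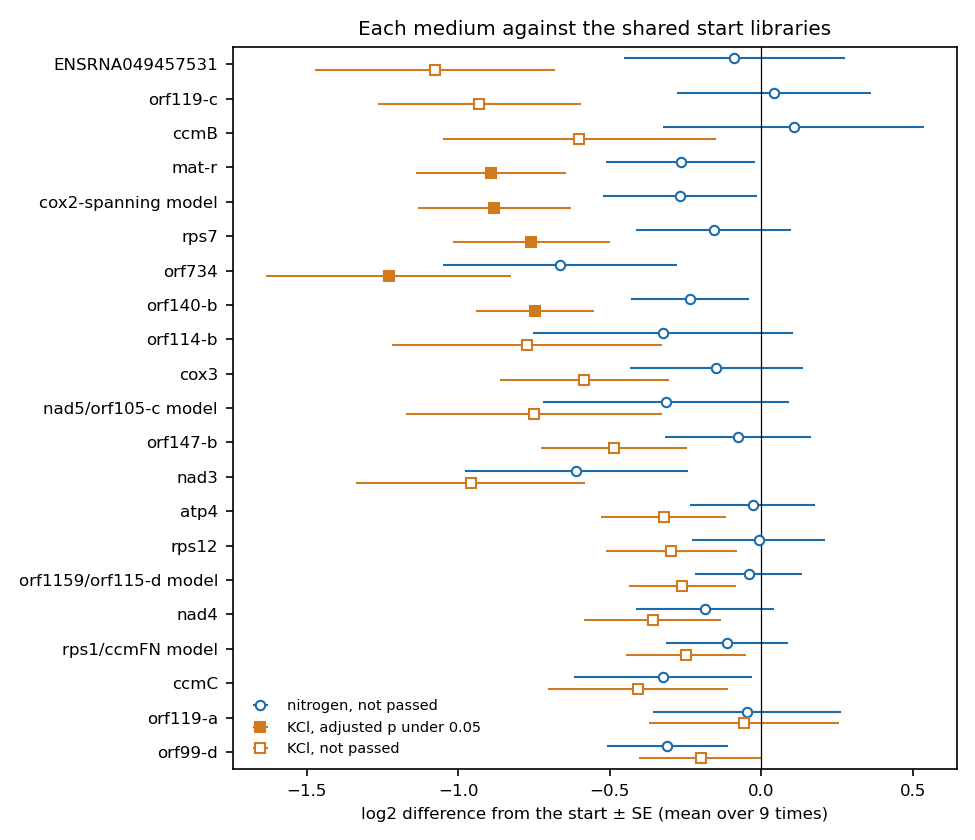
The log2 difference from the start, with its SE, is plotted for each of the 21 tested models, for nitrogen (circles) and KCl (squares), each the mean over 9 times. The KCl values all lie left of 0, from −1.23 for orf734 to −0.06 for orf119-a, and the nitrogen values between −0.66 and 0.11.

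Within a medium, a few models changed over time in nitrogen. The joint test over the 9 nitrogen times passed for 6 of 21 models, against 13.1% of all genes: atp4 (adjusted p = 0.00118), the orf1159/orf115-d model (0.00346), ccmC (0.00853), the cox2-spanning model (0.0294), orf140-b (0.0451) and orf147-b (0.0454). In KCl 0 of 21 passed against 5.14%, with 3 models at an unadjusted p under 0.05 in edgeR (atp4, ccmC and orf147-b). The call of orf140-b was lost in 7 of 10 alternatives (among them RLE size factors, library totals, DESeq2 and the replicate block) and that of orf147-b in 4 of 10 (among them DESeq2 and the replicate block). That one medium passed and the other did not is no test of a difference between them. The nitrogen count was 3 with DESeq2 and without replicate 2 at 15 min or replicate 1 at 120 min, and 13 without replicate 1 at 20 min.

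The models that rose late in nitrogen were atp4, ccmC and the orf1159/orf115-d model. From the early (5 to 30 min) to the late times (45 to 120 min) 3 of 21 passed, all higher, against 6.39% of all genes (2.93% higher). The rise was 0.62 ± 0.14 on the log2 scale for atp4 (adjusted p = 0.00202), 0.74 ± 0.21 for ccmC (adjusted p = 0.018) and 0.49 ± 0.12 for the orf1159/orf115-d model (adjusted p = 0.00523). The nitrogen groups with the lowest and the highest mean were taken for each gene, so their separation is no test. In these, atp4 held 27.9, 26.4 and 22.9 CPM at 15 min and 70.8, 65.04 and 79.9 CPM at 90 min. The level of ccmC was 2.25, 10.7 and 2.43 CPM at 10 min and 26.4, 23.4 and 17.1 CPM at 90 min. At 30 min, one of the early times, ccmC already held 16.3, 23.4 and 12.2 CPM, which overlaps the values at 90 min, and its early to late call was lost with thinned counts. In KCl the early to late contrast passed for 0 of 21 models (6.18% of all genes; 0 at an unadjusted p under 0.05 in edgeR), with values of 0.18 for atp4, 0.18 for ccmC and 0.10 for the orf1159/orf115-d model. The count in nitrogen was 5 without replicate 2 of nitrogen at 20 min.

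The genes atp4 and orf99-d lie next to each other on the minus strand, with orf99-d 222 bases downstream of atp4, and their counts moved apart. The ratio of atp4 to orf99-d counts was 0.0144 ± 0.00236 at the start (SD, n = 3). In nitrogen the ratio was 0.00682, 0.00753 and 0.00807 in the libraries at 15 min, 0.0201 to 0.0229 at 20 min, 0.0272 to 0.0374 at 90 min, and 0.0315 and 0.0350 in the 2 libraries at 120 min. None of the libraries at 15 min reached the lowest value of the later times named. The nitrogen mean was lowest at 15 min and highest at 120 min, so these times are extremes and their separation is no test. In KCl the ratio was 0.0102 ± 0.000872 at 15 min and 0.0209 ± 0.00166 at 120 min (n = 3 each). A ratio within a library does not depend on the scaling between libraries, but it does not say which of the genes changed.

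A run of 6 described models lies on the minus strand within 13466 bases (AGPv4 Mt:262384-275849), in the order rps1/ccmFN, orf114-b, mat-r, orf140-b, nad3 and rps12. These 6 hold 61.8% of the mitochondrial counts that remain without orf99-d. Their counts differ widely, from 443 for orf114-b to 110222 for the rps1/ccmFN model. The genes nad3 and rps12 are only 44 bases apart, and rps12, the downstream one, had 14622 counts to 800 for nad3. The lengths of rps12 and nad3 are close, at 378 and 357 bases, and per kilobase the counts are 38683 and 2241. Of the 6 models mat-r, orf140-b and rps12 passed in the average contrast between media, 3 of 6 against 58.8% of all genes.

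**Figure D5:**
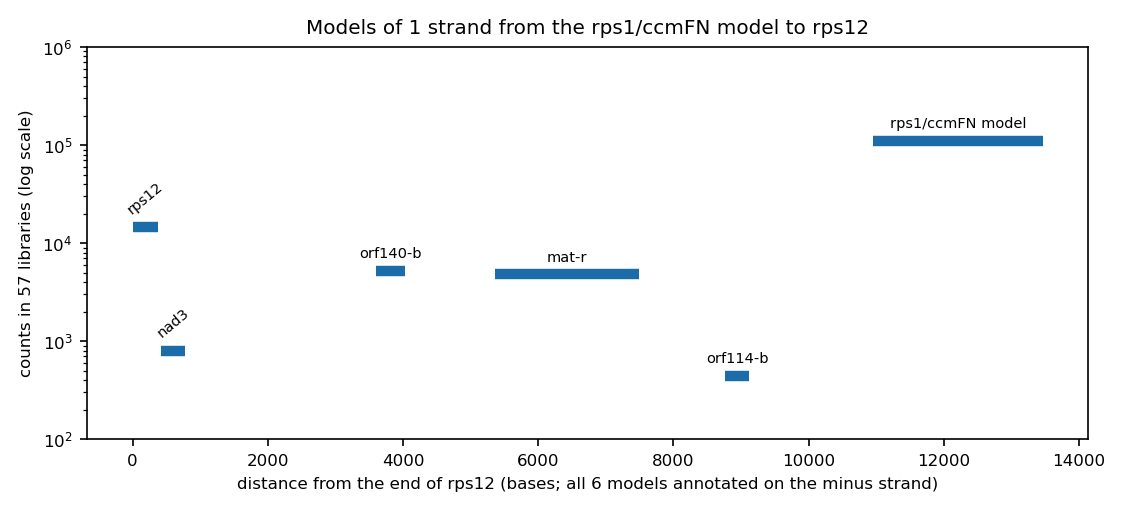
The 6 models are drawn to scale by distance from the end of rps12 (bases), at the height of their counts in 57 libraries (log scale). The counts run from 110222 for the rps1/ccmFN model to 443 for orf114-b, and the neighbours nad3 and rps12 stand at 800 and 14622.

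Most of the abundant models had similar profiles over the groups. Over the 19 group means of the 12 models with at least 20 CPM, the 55 pairs without orf99-d had a median Pearson r of 0.79, from 0.35 to 0.96. The most alike were the cox2-spanning model and rps7 at 0.96, then cox3 and rps12 at 0.93. The profile of orf99-d was unlike the rest, with a median r of −0.10 to the other 11 and a highest r of 0.24, to orf140-b. These are descriptions over 19 points that share libraries and scaling factors, and libraries low in all mitochondrial counts were kept.

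The authors' deposited network table lists 5 of the models as targets: orf147-b, the orf1159/orf115-d model, orf140-b, the cox2-spanning model and atp4. Each has 203 regulators in the authors' deposited table, of which 138 to 140 carry a weight above 0. The largest weight was 4.16 for the cox2-spanning model and 1.84 for atp4 in that authors' deposited table, and 0.638% and 1.83% of all listed pairs carry a larger one.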

How the data were processed

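Shoot RNA of 57 libraries in 19 groups was measured by 3′ end sequencing with molecular identifiers. Tests used the raw counts of each gene as deposited by the authors. The submitters' processing notes name featureCounts 2.0.1, STAR 2.7.6a, UMI-tools 1.1.1 and fastp 0.21.0, while the file header of the counts names featureCounts 1.5.1. Per the file headers the annotation was release 37 of AGPv4, without a strand option. How reads that map to several places were treated follows the counter's defaults, so models with copies elsewhere in the genome are uncertain. A quantile-normalized table (18370 genes, 55 libraries) and network weights, also deposited, were treated as scores. Of the columns with counts 2 match no labelled sample and stayed unused.

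Gene names came from RefSeq (Zm-B73-REFERENCE-NAM-5.0), whose mitochondrial genes share start and end with 97 of the 144 models. Printed positions are from the file of counts. The test was edgeR 4.0.16 (R 4.3.3) with TMM factors, low genes removed by filterByExpr, and its quasi-likelihood F statistic for contrasts of 19 group means (38 residual degrees of freedom). P-values are two-sided and Benjamini-Hochberg adjusted over 18412 genes, with a threshold of 0.05, and each SE was taken as |log2 change|/√F. Scripts were tested on simulated data. DESeq2 1.42.0, limma 3.58.1 on the quantile table as log2(value + 1), other scaling, filters, thinning, a replicate block, covariates and each library left out were alternatives.

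All models with a mean of at least 1 CPM are named, and values by library are given for the most abundant of each role. The models, roles and tests were chosen with earlier results of these data known. Replicate numbers in the labels were not used to pair libraries.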

Additional observations from a re-analysis of the deposited data

How the results depend on the processing

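Of the 13 calls in the average difference between media 12 were kept with RLE size factors, 13 with library totals and with the replicate block, 10 with DESeq2, and 9 of 14 models tested with a mean of at least 5 CPM. Without the library of 8560 counts the count was 16 of 25 models tested, and with each library left out in turn it ran from 14 to 20 of 23 to 25 models tested, and 0 to 1 were lower. The 20 came without replicate 1 of nitrogen at 20 min, an omission under which nad3, nad4, orf114-b and the rps1/ccmFN model, all tested before, also passed. Leaving out the filter on low counts (63 models) raised the counts to 24 (1 lower) for the average, 25 jointly, 57 at single times, 1 late minus early, 11 for KCl against the start, 13 over time in nitrogen, 8 in KCl and 6 late against early in nitrogen. Over all 31641 genes tested that way 11472 passed in the average, 9402 jointly, 634 late minus early, 2532 for KCl against the start, 3824 over time in nitrogen, 2186 in KCl and 1422 late against early in nitrogen. Of the single times, 20 min had 13 of the 63 models against 4779 of those genes, and 120 min had 1 against 558. The position covariate gave 2, 1 and 2 for the average, joint and single-time tests and 3 for KCl against the start. Over all 18771 genes it gave 4376 in the average, 2874 jointly and 1784 for KCl against the start. The cause of the loss of calls under it was not tested. The same axis centred within groups, which cannot change a difference between group means, gave 30 at single times. DESeq2 gave 10 at single times, 1 for KCl against the start and 3 over time in nitrogen, where over all 18412 genes the calls fell from 4914 to 2998 at 20 min, from 2061 to 947 and from 2417 to 1275. KCl against the start gave 3 of 14 with the stricter filter (1900 of 15391 genes) and 3 of 15 with thinned counts (1036 of 16092).

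With libraries left out in turn, the joint count ran from 10 to 20 (16 without replicate 2 of nitrogen at 10 min or replicate 3 of KCl at 90 min, 20 without replicate 1 of nitrogen at 20 min), single times from 12 to 28, KCl against the start from 0 to 10, over time from 3 to 13 in nitrogen and 0 to 3 in KCl, and late against early in nitrogen from 2 to 5. The difference in mitochondrial share, 0.0108 percentage points, ran from 0.00445 to 0.0233. The counts for late minus early and for nitrogen against the start stayed 0 in these omissions. Replicate numbers share only a number: 61 of 495 same-number pairs had a correlation of residuals over 0.1, and the replicate block left the average at 13 but lost rps7 against the start, the cox2-spanning model at 45 min, and orf140-b and orf147-b over time in nitrogen. Under the alternatives run, no model that passed in the average difference between media changed its sign there. For the other contrasts signs were not compared.

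The calls for rps7 against the start and for orf140-b and orf147-b over time in nitrogen were lost in 43, 29 and 39 of 57 omissions. In the quantile table rps12 (adjusted p = 0.142) and cox3 (adjusted p = 0.175) did not pass with limma. Depth limits the models near 1 CPM, which hold a few counts a library.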
